A study of Gallus gallus with 2 samples.

Results

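The genes described here encode co-chaperones and folding enzymes: the J domain proteins (DNAJA, DNAJB and DNAJC), the subunits of the cytosolic chaperonin with its partner prefoldin, the prolyl isomerases of the FKBP and cyclophilin families, and adaptors of the HSP70 and HSP90 chaperones. They were chosen by the gene name that the array files give each probe and comprise 41 probes of 35 genes among 42034 probes with 40231 distinct names. Of these, 31 probes of 30 genes were bright enough to be tested. RNA came from intestinal intraepithelial lymphocytes, which are mostly T cells lodged within the gut epithelium, and was compared at day 14 of age between Broiler chickens given direct fed microbials (DFM, live microbes in the feed) and Broiler chickens of the same age labelled control. The microbial strains, the doses and the number of birds behind each RNA are not given in the sources used here. Each of 2 two-colour Agilent arrays on 1 slide carried DFM RNA and control RNA together, with DFM RNA in Cy5 on replicate 1 and in Cy3 on replicate 2. The labels describe the second array as a biological replicate and as a dye exchange of the first. Every p-value therefore rests on the scatter between 2 arrays, for the most part as pooled over all tested probes. That scatter may be purely technical.

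Most proteins in a cell need help to fold. HSP70 holds short unfolded stretches and is driven by J domain proteins, which bring it clients and trigger its ATP hydrolysis, while BAG proteins help it to release them. The chaperonin is a barrel of related subunits that encloses actin, tubulin and other clients delivered by prefoldin. FKBPs and cyclophilins speed the rotation of the peptide bond before proline, and several of them serve as partners of HSP90, as folding enzymes of the endoplasmic reticulum (ER) or as parts of the spliceosome.

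In the DFM samples 5 of the 31 tested probes were lower, those of FKBP5, CCT5, DNAJC10, DNAJA2 and DNAJB6, and 2 were higher, those of DNAJC17 and PPIG. The other 24 did not pass the test, which was limma's moderated test of the log2 ratio of DFM over control against 0, with a Benjamini-Hochberg adjusted p under 0.05 over all 18242 tested probes. The called share of these genes, 22.6%, equalled that of all tested probes, 22.6%. By direction, 6.45% of the probes were called higher, against 12.1% of all tested probes, and 16.1% were called lower, against 10.5%. Their median log2 ratio was -0.13, with quartiles of -0.38 and 0.12, beside a median of 0.00 and quartiles of -0.21 and 0.24 over all tested probes. Loess sets the average probe of an array near 0, and all ratios are read against it. In RNA from a mixed population, fewer cells of a type and less RNA per cell cannot be told apart. With the scanner software's own ratio 1 of the 31 probes was called, FKBP5, and with median centring in place of loess none was.

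**Figure D1:**
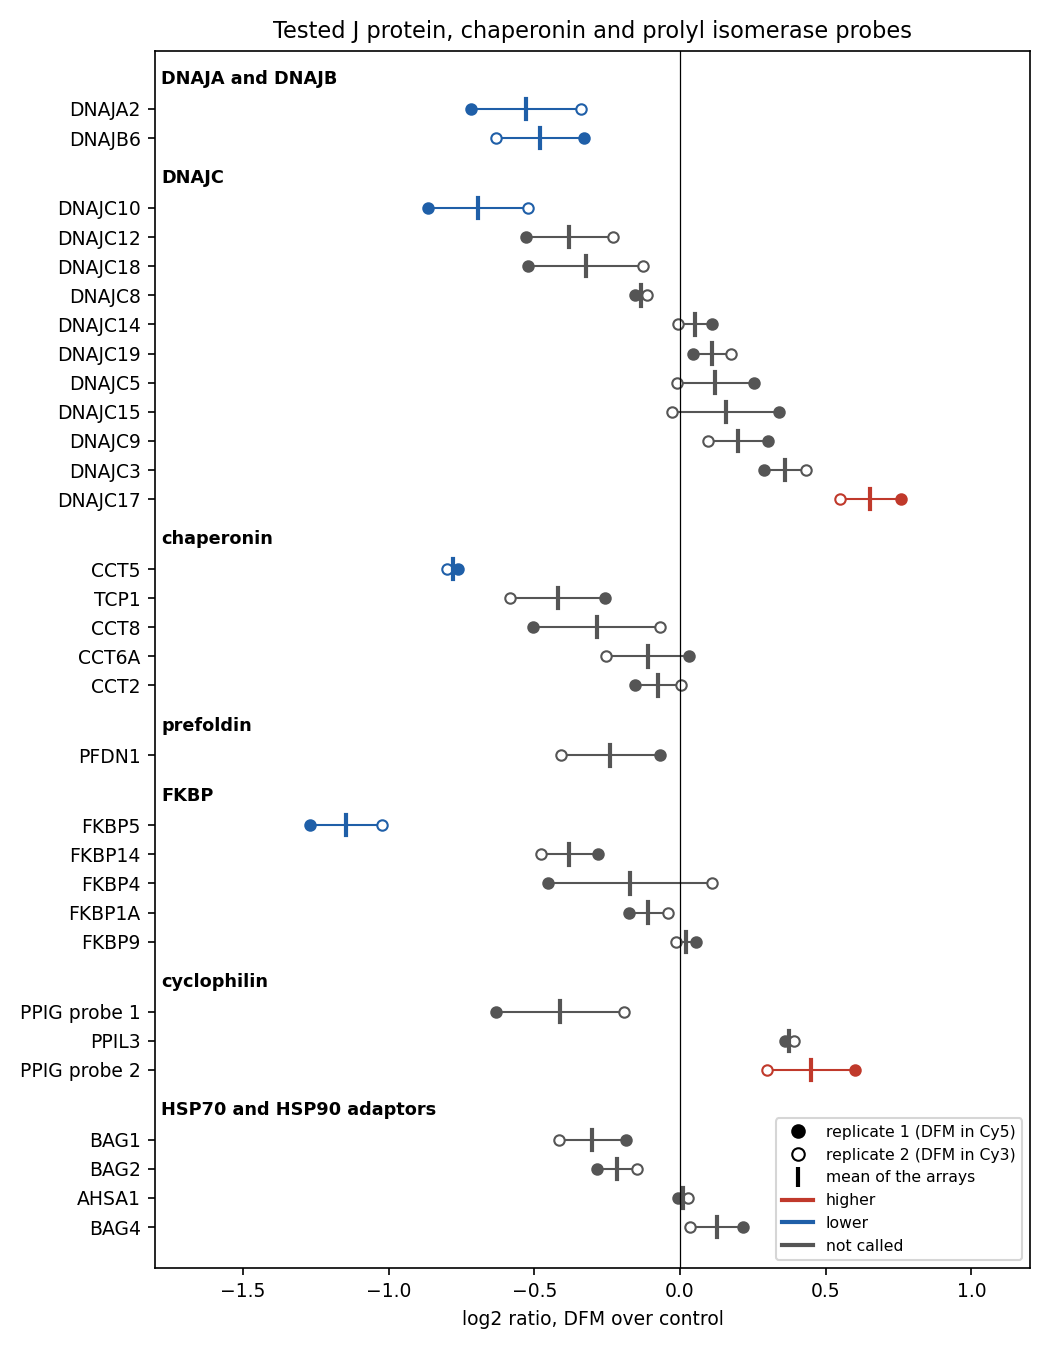
Log2 ratio of DFM over control of the 31 tested probes, ordered by role and drawn on 1 horizontal axis. Filled circles are replicate 1, open circles replicate 2 and bars their mean, and colour marks the call. FKBP5 lies farthest to the left on both arrays, DNAJC17 farthest to the right.

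The median ratio was -0.15 on replicate 1 and -0.07 on replicate 2, so it was smaller in size without replicate 1. A positive ratio on both arrays was found for 7 probes, a negative one on both arrays for 16, and signs that differed between the arrays for 8. Of all 18242 tested probes, 6890 were positive on both arrays, 6972 were negative on both and 4380 had signs that differed. The largest difference between the arrays was that of FKBP4, 0.56 on the log2 scale, followed by 0.44 for CCT8 and 0.44 for a PPIG probe that was not called.

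**Figure D2:**
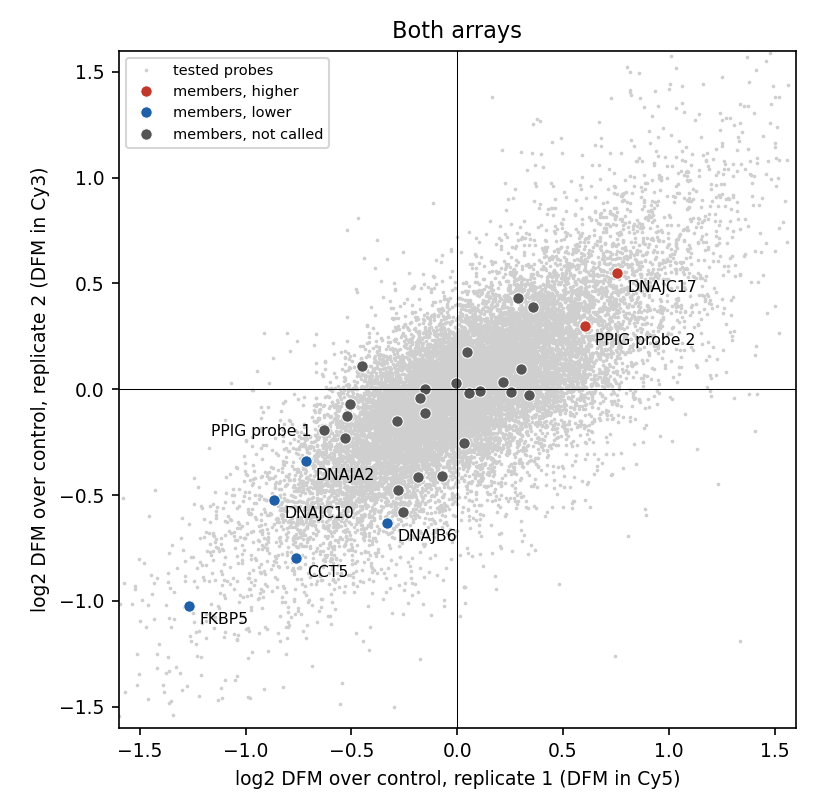
Log2 ratio of DFM over control on replicate 1 (horizontal axis) against replicate 2 (vertical axis), for all tested probes in grey and for the 31 probes described here in colour by call. The axes are limited to the central range, so tested probes beyond it are not drawn. PPIG probe 2 is the called PPIG probe and PPIG probe 1 the other tested one. The 5 probes called lower sit in the lower left quadrant and the 2 called higher in the upper right.

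Among the FK506-binding prolyl isomerases FKBP5 was lower with DFM. FKBP5 is an HSP90 partner that, in mammals, lowers the hormone binding of the glucocorticoid receptor and is itself induced by glucocorticoids. Its normalized signal (log2) was 6.75 and 7.003 in DFM samples, against 8.01 and 8.03 in control samples. The groups did not overlap, and both DFM values lay at least 1 log2 unit below both control values. The ratio was -1.27 on replicate 1 and -1.02 on replicate 2, a mean of -1.15 with an SE of 0.13, or 2.21-fold lower (limma adjusted p = 0.000723, n = 2 arrays). In the order of mean ratios it stood at place 117 from the lowest of 18242 tested probes, ahead of all other probes described here. The spots were dim, with uncorrected mean brightness of 134 and 98.2 in DFM samples, against 219 and 317 in control samples. The offset added before the logarithm shrinks ratios of such spots: without it the mean was -1.67 (limma adjusted p = 0.000837), and with the scanner software's ratio it was -1.98 (limma adjusted p = 0.0139). The probe is placed at chr32:978188-979159 on the plus strand of galGal2, a stretch longer than a typical probe of this array. The exon or untranslated region it matches is not given in the sources used here.

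No other FKBP passed the test. FKBP4, which like FKBP5 binds HSP90 but favours hormone binding by steroid receptors in mammals, had signals of 6.34 and 6.66 in DFM samples, against 6.79 and 6.55 in control samples. Its ratios had opposite signs, -0.45 and 0.11, and the values of the groups overlapped (mean -0.17, limma adjusted p = 0.460). FKBP1A, the target of the drugs tacrolimus and rapamycin, gave 10.93 and 11.07 with DFM and 11.10 and 11.11 in control samples, a mean ratio of -0.11 (limma adjusted p = 0.559). Of the ER isomerases, FKBP14 had a mean ratio of -0.38 and was negative on both arrays (limma adjusted p = 0.0653). FKBP9 had a mean of 0.02 (limma adjusted p = 0.924), a sign that turned with the scanner software's ratio and under median centring. FKBP1B was above background in 1 DFM and 1 control channel and FKBP3 in none, and neither was tested.

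The chaperonin subunit CCT5 was lower with DFM. Its signal was 9.37 and 8.60 in DFM samples, against 10.14 and 9.40 in control samples. The groups did not overlap, but the signal was lower on replicate 2 in both of them, so that the higher DFM value and the lower control value nearly met. Within each array DFM lay below control by almost the same amount. The ratios were -0.76 and -0.80, a mean of -0.78 with an SE of 0.12, or 1.72-fold lower (limma adjusted p = 0.00366), which was place 420 from the lowest. The probe lies at chr2:78325298-78325314 on the minus strand of galGal2, a stretch shorter than a typical probe of this array.

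The 4 other subunits with a tested probe did not pass. TCP1, which is subunit 1, gave 11.89 and 11.75 with DFM and 12.15 and 12.34 in control samples, values that did not overlap (mean ratio -0.42, limma adjusted p = 0.0568). CCT8 gave 8.08 and 8.47 with DFM and 8.59 and 8.54 in control samples, so that most of its gap came from replicate 1. Ratios on the 2 arrays were -0.51 and -0.07 for CCT8, 0.03 and -0.25 for CCT6A, and -0.15 and 0.00 for CCT2. All 5 means were negative under each background and scaling setting tried, with a median of -0.29. Probes for CCT4 and CCT7, which the array files list under other names and the RefSeq gene table identifies, had means of -0.16 and -0.08 (limma adjusted p = 0.390 and 0.702). With them 7 of 7 subunit means were negative, 4 of them on both arrays, and 1 was called, or 14.3%, beside 22.6% of all tested probes. Over all tested probes 49.9% of the means were negative.

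**Figure D3:**
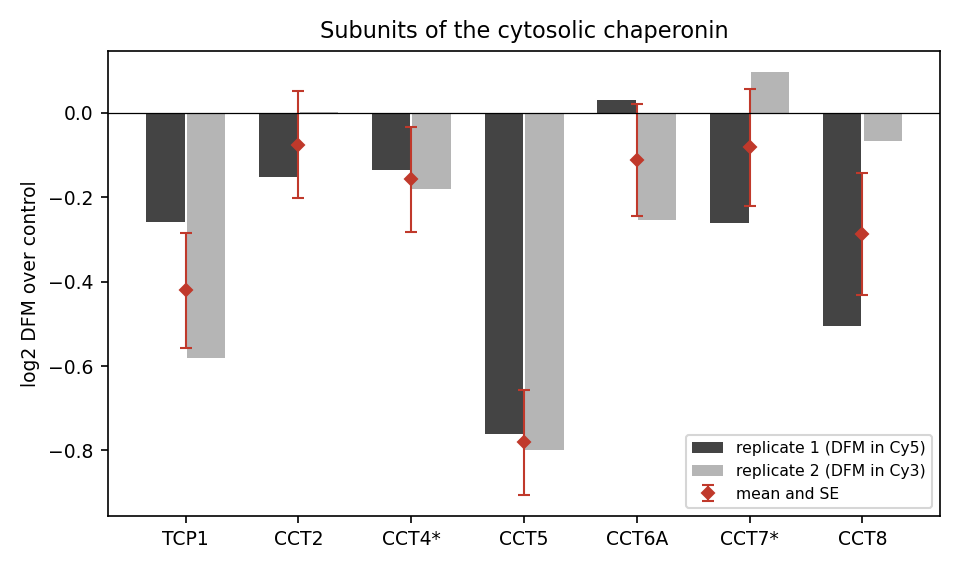
Log2 ratio of DFM over control of the 7 tested chaperonin subunits. Dark bars are replicate 1, light bars replicate 2, and diamonds with whiskers the mean and its SE, with an asterisk on subunits that only the RefSeq gene table identifies. CCT5 has nearly equal bars, whereas those of CCT8 differ by 0.44.

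Prefoldin hands unfolded actin and tubulin to the chaperonin. PFDN1 gave 6.59 and 6.43 with DFM and 6.66 and 6.84 in control samples, with ratios of -0.07 and -0.41 (mean -0.24, limma adjusted p = 0.240), and PFDN4 was above background in no channel. VBP1, a prefoldin subunit that the naming rule did not take in, had ratios of -0.23 and 0.28 (mean 0.03, limma adjusted p = 0.920).

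The array files name 2 tested J proteins of the DNAJA and DNAJB classes, and both were lower with DFM, beside 10.5% of all tested probes. Another 6 tested probes of these classes, identified only through the RefSeq gene table, held 1 higher and 1 lower and are described further on. DNAJA2 is a general cytosolic co-chaperone of HSP70, and its signal was 10.12 and 10.29 in DFM samples, against 10.84 and 10.63 in control samples. The groups did not overlap, but the gap on replicate 1, -0.72, was more than that on replicate 2, -0.34. The mean was -0.53 with an SE of 0.14, or 1.44-fold lower (limma adjusted p = 0.0286). DNAJB6, which in mammals keeps aggregation-prone proteins soluble, had signals of 9.76 and 9.66 with DFM and 10.09 and 10.29 in control samples. Here the larger gap was on replicate 2, with ratios of -0.33 and -0.63, a mean of -0.48, an SE of 0.13 and a 1.39-fold lower signal (limma adjusted p = 0.0352). The probes lie at chr11:7922391-7922450 and chr2:8134861-8134920, both on the plus strand of galGal2. Both lost the call without the offset, at limma adjusted p = 0.0914 for DNAJA2 and 0.0983 for DNAJB6.

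The DNAJC class, whose members share the J domain but little else, held 1 called probe in each direction among 11 tested. That was 9.09% in each direction, beside 12.1% higher and 10.5% lower over all tested probes. The class had a median ratio of 0.11, with 0.11 on replicate 1 and -0.01 on replicate 2. DNAJC10, also known as ERdj5, is a J protein and disulfide reductase of the ER lumen. Its signal was 8.94 and 8.98 in DFM samples, against 9.81 and 9.51 in control samples. All DFM values lay below all control values, with ratios of -0.87 and -0.52, a mean of -0.69, an SE of 0.14 and a 1.62-fold lower signal (limma adjusted p = 0.00924). The probe is at chr7:14677674-14677733 on the minus strand, and the other DNAJC10 probe was above background in no channel.

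DNAJC17, a nuclear J protein with an RNA recognition motif that is linked to splicing in mammals, was higher with DFM. It gave 9.37 and 9.22 in DFM samples, against 8.61 and 8.67 in control samples. The groups were apart by more than either group's spread, with ratios of 0.76 and 0.55, a mean of 0.65, an SE of 0.13 and a 1.57-fold higher signal (limma adjusted p = 0.00916). The probe lies at chr5:2447998-2448057 on the plus strand of galGal2.

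The 9 remaining tested DNAJC genes did not pass. DNAJC3 is an ER co-chaperone that also inhibits the kinase PERK in mammals. It had 10.90 and 10.86 with DFM and 10.61 and 10.43 in control samples, groups that did not overlap (mean ratio 0.36, limma adjusted p = 0.0733). DNAJC9, a histone co-chaperone, had a mean of 0.20, and DNAJC8, a nuclear protein found with the spliceosome, had -0.13. The mitochondrial import proteins DNAJC15 and DNAJC19 had means of 0.16 and 0.11. DNAJC5, the cysteine string protein of secretory vesicles, had 0.12 and was above background on 1 of the 2 control arrays. DNAJC14, an ER membrane protein, had 0.05. The most negative were DNAJC12, which in mammals assists aromatic amino acid hydroxylases, at -0.38 (limma adjusted p = 0.0753), and DNAJC18 at -0.32 (limma adjusted p = 0.134). Second probes of DNAJC12 and DNAJC15 were above background in no channel.

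**Figure D4:**
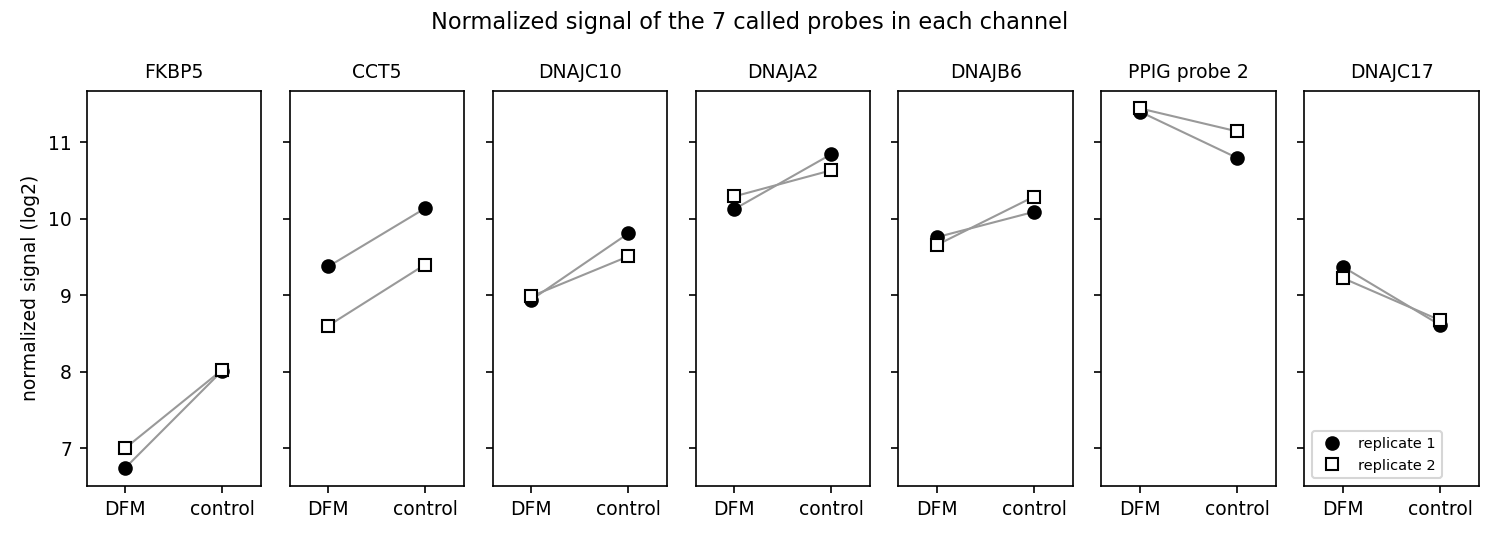
Normalized signal (log2) of the 7 called probes, with DFM left of control in each panel. Circles are replicate 1 and squares replicate 2. Grey lines join the channels of 1 array, and PPIG probe 2 is the called PPIG probe. The groups overlap in no panel, and for CCT5 both lines run in parallel with replicate 2 below replicate 1.

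Among the cyclophilins the nuclear isomerase PPIG, which carries an arginine and serine rich tail and associates with splicing factors, gave unlike results on its probes. The called probe, at chr7:19409576-19409635 on the minus strand of galGal2, had signals of 11.40 and 11.44 with DFM and 10.79 and 11.14 in control samples. DFM lay above control on each array, with ratios of 0.60 and 0.30, a mean of 0.45, an SE of 0.13 and a 1.37-fold higher signal (limma adjusted p = 0.0440). A second probe, 4721 bases away at chr7:19404855-19404914, had 7.34 and 7.81 with DFM and 7.97 and 7.996 in control samples. Its ratios ran the other way, -0.63 and -0.19, without passing the test (mean -0.41, limma adjusted p = 0.0748). Another PPIG probe, which lies between them, was above background in no channel. The direction for PPIG therefore depends on the probe, and the transcripts each probe matches are not given in the sources used here. PPIL3, a small cyclophilin of the spliceosome, had 10.23 and 10.29 with DFM and 9.87 and 9.90 in control samples. These values did not overlap and the arrays gave nearly equal ratios, 0.36 and 0.39, yet the mean of 0.38 did not pass (limma adjusted p = 0.0611). PPIB, the ER cyclophilin of collagen folding, and PPIL6 were above background in no channel and were not tested.

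None of the 4 tested adaptor probes passed limma's adjusted threshold, and 1 had an unadjusted p under 0.05, BAG1. BAG1, a nucleotide exchange factor of HSP70, had a mean ratio of -0.30 and was negative on both arrays (limma adjusted p = 0.131). BAG2, which inhibits the ubiquitin ligase CHIP in mammals, had -0.22. BAG4, known in mammals for holding death receptors silent, gave 12.35 and 12.25 with DFM and 12.13 and 12.22 in control samples, a mean ratio of 0.13 (limma adjusted p = 0.506), while its other probe was above background in no channel. AHSA1, the activator of the HSP90 ATPase, had signals of 12.03 and 12.03 with DFM and 12.03 and 12.01 in control samples. Its mean ratio was 0.01 (limma adjusted p = 0.959), with a sign that turned under the scanner software's ratio.

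The RefSeq gene table identified 24 further probes of 22 genes of the same families, which the array files list under other names and which the naming rule therefore did not take in. Of the 20 tested, 1 was higher, DNAJB12, and 1 was lower, DNAJA4, a share of 10% beside the 22.6% of all probes. DNAJB12, a J protein of the ER membrane that takes part in the disposal of misfolded membrane proteins, gave 12.65 and 12.70 with DFM and 11.995 and 11.90 in control samples. Its mean ratio was 0.73 with an SE of 0.13 (limma adjusted p = 0.00540). DNAJA4, a close relative of DNAJA2 whose expression rises with heat in mammals, gave 8.20 and 8.36 with DFM and 8.98 and 9.06 in control samples. Its mean was -0.74 with an SE of 0.12 (limma adjusted p = 0.00478). Neither pair of groups overlapped. DNAJA1, the most studied DNAJA protein, had a mean of -0.05, and AHSA2, a relative of the HSP90 adaptor AHSA1, had 0.29. DNAJC7, which binds both HSP70 and HSP90, had probes at -0.38 and 0.24 (limma adjusted p = 0.0714 and 0.193). Taken with the genes above, 3 of 51 tested probes were higher and 6 were lower, with a median ratio of -0.11. The called share was 17.6%, beside 22.6% of all tested probes, with 5.88% higher, beside 12.1%, and 11.8% lower, beside 10.5%.

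Other genes of protein folding were read from a list of chaperones, heat shock factors, ER folding enzymes and further prolyl isomerases. Of 38 tested probes of 35 genes, 3 were higher, 8 were lower and 27 did not pass, with a median ratio of -0.03. The called share was 28.9%, beside 22.6% of all tested probes, with 7.89% higher, beside 12.1%, and 21.1% lower, beside 10.5%. HSPA2, a member of the HSP70 family, was lower on both of its probes, with means of -3.05 and -3.14. Those probes cover nearly the same bases of galGal2, chr5:49644098-49644154 and chr5:49644096-49644155, so they read 1 place in the gene. BAG3, the adaptor of HSP70 in selective autophagy, was lower with a mean of -1.65. With the offset, the HSPA2 and BAG3 means were larger in size than the ratio of any J protein, chaperonin or isomerase probe here. For BAG3 this order depended on the processing. With the scanner software's ratio BAG3 had -1.65 on replicate 1 and -1.81 on replicate 2, against -2.11 and -1.85 for FKBP5. HSPA4L and HSPA4, which act as nucleotide exchange factors of HSP70, had means of -0.84 (limma adjusted p = 0.00260) and, on 1 of 2 tested HSPA4 probes, -0.53 (limma adjusted p = 0.0209). PDCL3, a phosducin-like partner of the chaperonin, was also lower, at -0.65 (limma adjusted p = 0.0139). The heat shock factor HSF3, described first in chicken, was lower at -0.56 (limma adjusted p = 0.0171). CWC27, a cyclophilin of the spliceosome, was higher at 0.58 (limma adjusted p = 0.0175).

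Marker lists of T cells and of other cell types were read beside these ratios. Each marker gene was read on 1 probe, the one above background in the most channels and, among equals, the brightest. Of 10 exocrine pancreas genes on the array 8 were tested, and all 8 were higher with DFM, but 3 of the 10 genes were above background in all channels. A probe above background with DFM alone could be tested, so some of the 8 may have entered through the group where they were high. The summed normalized signal was 19138 to 19198 in DFM samples, against 985 to 1001 in control samples. These sums include PRSS2 and PRSS3, which were above background in no channel. The T cell list, with 7 of 9 genes above background in all channels, summed to 31922 to 37601 with DFM and 49372 to 50597 in control samples, and 1 of 8 tested genes was lower. Enterocyte genes were above background in all channels for 9 of 11, with FABP2 and SI in none, and summed to 529003 to 684428 with DFM and 564807 to 708124 in control samples, sums that overlapped, while 3 of 9 tested genes were lower. Red cell genes, with 2 of 4 above background in all channels and TAL1 in none, summed to 36554 to 38950 with DFM and 61936 to 66162 in control samples, with 1 of 3 tested genes higher and 1 lower. The B cell list, with 3 of 4 genes above background in all channels, summed to 1103 to 1134 with DFM and 1266 to 1274 in control samples, with 1 of 3 tested genes lower. LYZ, the 1 macrophage gene above background, was called higher. It was part of a sum of 793 to 929 with DFM and 513 to 559 in control samples, which also holds CSF1R, above background in no channel. ACTA2, the 1 of 3 smooth muscle genes above background in all channels, was part of a sum of 203 to 217 with DFM and 277 to 279 in control samples, with DES in no channel and 1 of 2 tested genes lower. Beside these counts, 12.1% of all tested probes were called higher and 10.5% lower. The sums give most weight to bright genes. Median log2 ratios of the tested genes were -0.17 for T cells, -0.10 for enterocytes and 2.23 for exocrine pancreas. They were -0.32 for B cells, -0.35 for red cells and -0.52 for smooth muscle, and LYZ had 0.75. The part of these cell types in the ratios above was not tested.

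The signs of the 7 called means were the same under every setting tried, but their calls were not. Without background correction PPIG alone lost its call (limma adjusted p = 0.0523), and without the offset DNAJA2, DNAJB6 and PPIG did. With the scanner software's ratio all but FKBP5 did, the closest being CCT5 (mean -0.88, limma adjusted p = 0.0540). With median centring none of the 31 probes passed, and 0 had an unadjusted limma p under 0.05, beside 400 of all 18242 tested. Over all tested probes 109 were then called higher and 8 lower, beside 2202 and 1918 with loess. Under median centring DNAJA2 and DNAJB6 also turned positive on replicate 1, and DNAJC17 and PPIG turned negative on replicate 2. Such moves, up on replicate 1 and down on replicate 2, were not particular to these genes. Under median centring AHSA1 had 0.93 and -0.88 with a mean of 0.02, and CCT2 had 0.78 and -0.91 with a mean of -0.06.

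**Figure D5:**
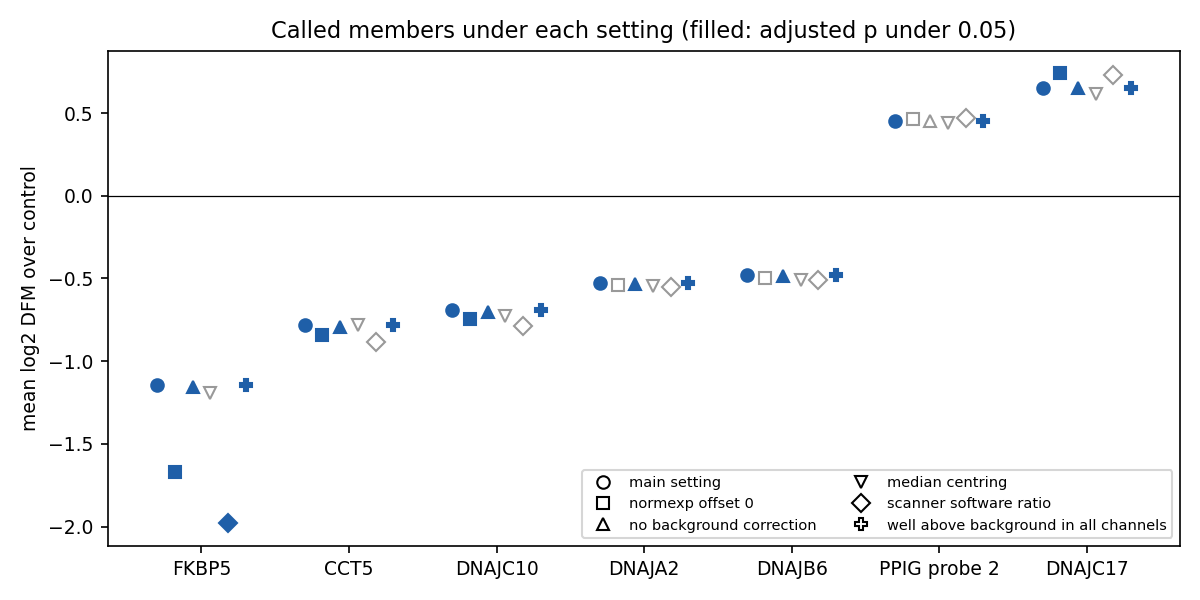
Mean log2 ratio of DFM over control of the 7 called probes under each processing setting, with filled symbols where the adjusted p is under 0.05. PPIG probe 2 is the called PPIG probe. All symbols of a gene lie on 1 side of 0, FKBP5 moves between -1.15 and -1.98, and the median centring symbols are all open.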

How the data were processed

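Total RNA was labelled with Cy3 and Cy5 and hybridised to 2 arrays of 43451 spots, 1417 of them controls. Mean spot brightness and median local background in each dye were deposited as intensity, per the file headers, and the deposited log10 ratio and its p-value come from the scanner software (Agilent Feature Extraction 9.5.3.1 in the headers, 10.7.3.1 in the submitters' processing notes). The authors' series table holds log2 values. Over 42034 probes it equalled DFM over control of the software's dye-normalized signals (r = 1 on both arrays, medians -0.274 and 0.204), so its scale and direction are known and it is not centred. The scanner software's Cy5 over Cy3 log ratios of the arrays, before replicate 2 was turned, correlated at -0.47 over all probes, the sign a dye exchange gives.

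Signals were corrected with normexp (offset 50) and loess-normalized within each array, with controls at weight 0, in limma 3.58.1 (R 4.3.3, with version 1.17.8 of data.table). Channel levels were put on 1 scale with Aquantile. A probe was tested if at least 1 of the groups was well above background on both arrays, which held for 18242 probes, against 17331 to 21122 probes above background per DFM channel and 16889 to 20465 per control channel. No probe was saturated, and 5 with an outlier flag were dropped. The ratio of replicate 2 was turned, and each mean was tested against 0 with lmFit and eBayes, two-sided, with Benjamini-Hochberg adjustment at 0.05 (1 residual and 7.52 prior degrees of freedom). No dye term was fitted, since it would use up the residual degree of freedom. The SE printed is the moderated one, and precision is limited by having 2 arrays.

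Members were found by gene name in the array files. RefSeq names (assembly GRCg7b) were found for 10246 of 42034 probes, and coordinates are those of the files (galGal2). Named genes were all called probes, probes of 1 gene that disagreed, the 3 probes whose arrays differed most and a bright probe of each role; the text gives the remaining ones by their mean. The members, the lists and the rules were chosen with earlier results of these data known. Alternatives were the background correction, the centring, the software ratio, the authors' log2 values, the filter on dim probes, 1 probe per gene and leaving out each array; the RefSeq names were added after the data were seen.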

Additional observations from a re-analysis of the deposited data

How the results depend on the processing

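With 2 probes called higher and 5 lower among the 31, the number called higher was 1 with offset 0 and 1 without background correction. Median centring gave 0 higher and 0 lower, the scanner software's ratio 0 higher and 1 lower, and the authors' series table likewise gave 0 higher and 1 lower. At an unadjusted p under 0.05 limma gave 15 of the 31 probes, beside 6744 of all 18242 tested. With median centring it gave 0 of the 31, beside 400 of all tested. With the software's ratio it gave 9, beside 6355. The chaperone list with 11 called probes had 2 with median centring and 4 with the software's ratio, all of them lower. Over all tested probes 117 were called with median centring and 2130 with the software's ratio, beside 4120. The median of -0.13 was -0.066 without the filter on dim probes, and ranged from -0.155 to -0.067 when an array was left out. Of 246 comparisons for single probes, 23 lost the call, 3 gained it and 5 near 0 changed sign without a call. The other 215 were counted as unchanged, including those that left out an array, for which no test was made. Each of the 8 probes whose signs differed between the arrays changed sign when 1 of the arrays was left out. FKBP4, for example, went from -0.17 to 0.11 without replicate 1. The gains were DNAJC12 with offset 0 (limma adjusted p = 0.0421), PPIL3 without the filter (0.0409) and TCP1 with all channels above background (0.0488). The cause of these changes was not tested. The test of the ratio within each array is itself the paired comparison, and no other pairing was tried. Dim spots limit what can be read: 10 of 41 probes were not tested, and FKBP5 was measured near background. FKBP4, PFDN1, DNAJC5 and DNAJC12 were dimmer than FKBP5 in every channel, as were HSF3 and the called HSPA4 probe. Ratios of such spots move with the processing: the DNAJC12 mean of -0.38 was -1.05 with the software's ratio.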

Other observations

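Grouped by where the proteins mainly act in mammals, a grouping written after the ratios were seen, the called probes were counted by compartment, with no test of a difference between compartments. Over all tested probes 22.6% were called, 12.1% higher and 10.5% lower. At an unadjusted limma p under 0.05, 3525 of the 18242 tested probes were higher and 3219 lower. Of 17 cytosolic probes 4 were lower, FKBP5, CCT5, DNAJA2 and DNAJB6, and limma called 0 higher, with 0 at an unadjusted p under 0.05, a called share of 23.5%. Their median ratio was -0.24, and 82.4% of their means were negative, beside 49.9% over all tested probes. Of 6 nuclear probes of 5 genes 2 were higher, DNAJC17 and PPIG, and limma called 0 lower, with 1 at an unadjusted p under 0.05, the other PPIG probe. Their called share was 33.3% and their median 0.29. Of 6 ER probes 1 was lower, DNAJC10, with a median of -0.15, and the 2 mitochondrial probes did not pass. The grouping left out the 20 tested probes identified only through the RefSeq gene table. Among those, DNAJB12 of the ER membrane was higher at 0.73 and DNAJA4 was lower at -0.74.

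The following genes, outside the naming rule, were picked after their values were seen. Of other nuclear cyclophilins, CWC27 was higher, with a ratio of 0.58, and NKTR had 1 probe that was higher at 0.47 (limma adjusted p = 0.0292) and another at -0.06. PPIL2 at 0.26 and PPIH at -0.18 did not pass. Of the heat shock factors, HSF2 was higher at 0.48 (limma adjusted p = 0.0275), whereas HSF3 was lower at -0.56.

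FKBP5 is a glucocorticoid-induced gene in mammals. A list meant to hold further such genes was written after its value was seen, with no test of the list. Whether each listed gene, MT4 among them, is induced by glucocorticoids was not tested. Of 10 tested, 60% were called, in both directions, beside 22.6% of all tested probes. The list was chosen with earlier results of these data known, so this share cannot be read as an enrichment. Lower were 3: PDK4 (mean -2.37), SGK1 (-0.73) and DUSP1 (-0.63). Another 3 were higher: GLUL (0.90), MT4 (0.88) and CEBPB (0.74). The 4 others did not pass, 1 of them a probe the files name ZBTB16 and the RefSeq table ZBTB32. KLF15, also on the list, and the receptor NR3C1 were not tested, since their probes were not bright enough.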
